A study of Mus musculus with 42 samples.

Results

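Memory Th2 cells were set against the naive CD4+ T cells from which such cells are made in culture. Groups were taken from the sample titles, the pair of arrays of each numbered sample was averaged, and 3 memory Th2 samples stood against 3 naive samples, 6 of the 21 samples of the series. RNA of mouse CD4+ T cells had been labelled with 33P and measured in 1 channel on spotted arrays of 4992 reporters, of which 3626 carry the name of a single gene here and give 3230 distinct genes. The memory Th2 cells came from naive cells stimulated for 4 days with antigen-presenting cells under Th2 conditions and then rested for 3 days without them. The rested cells were transferred to mice that had been thymectomized, lethally irradiated and given T cell-depleted bone marrow, and the memory cells were sorted after 4 to 12 weeks. The naive cells were CD44lo, CD62Lhi, CD45RBhi and CD25- cells from the spleen of mice transgenic for the AND T cell receptor and for GFP, although the source field of all samples names the thymus. Because the memory Th2 cells descend from such cells, both groups carry both transgenes, so the same receptor transgene stands behind both sides of the comparison. In their description field these samples are called RM-Th2 rather than M-Th2, and the title was used. Nothing says that the numbered samples came from separate animals or cultures, so the p-values measure the spread between these samples only.

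Naive CD4+ T cells recirculate in a resting state until they meet antigen. Under Th2 conditions they become cells able to make IL-4, IL-5 and IL-13, and a part of them persists as memory cells that lack the antigen and rest again. Memory cells are known for a faster response on a second encounter, while many genes of the effector phase are no longer expressed at rest.

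Levels are log2(intensity + 1) after quantile normalisation, and the median reporter stood at 3.13. Levels of different reporters are not set against each other. Samples correlated across reporters at r = 0.902 to 0.910 within memory Th2 cells, 0.942 to 0.966 within naive cells and 0.882 to 0.957 between them. The median SD of a reporter was 0.44 among the memory Th2 samples and 0.30 among the naive samples. One property of the deposited values bears on every result. In memory Th2 1 and naive 1, and likewise in memory Th2 3 and naive 3, the ratio of array a to array b was the same at every bright spot to within rounding, and so was the ratio of repeated spots. Such identity held in 13 pairs of samples of the series, which left 10 distinct patterns among the 21 samples, and memory Th2 2 shared its pattern with memory Th1 2 but not with naive 2. In those pairs the second array and the second spot add no independent measurement, and the origin of the identity is not given in the sources used here. Same-numbered samples also deviated together from their group means, so the differences within each number are given beside the main results.

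A reporter was called when the limma fit over all 7 groups gave a Benjamini-Hochberg adjusted p below 0.05. Few reporters passed. Against naive cells, 7 of 4992 reporters were higher in memory Th2 cells (0.14%) and 7 were lower (0.14%), and in all 14 the 3 memory Th2 samples lay beyond the 3 naive samples. Groups did not overlap in 668 reporters (13.4%), and 441 reached an unadjusted p below 0.05. By gene, 4 of 3230 were higher (0.124%) and 6 were lower (0.186%). With the sample number as a block in the same fit, 37 reporters were higher (0.741%) and 33 lower (0.661%), which comes to 26 genes higher (0.805%) and 23 lower (0.712%), and all 14 reporters were among them. Of the 14, 6 kept their call in each of the 6 fits without 1 sample.

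**Figure D1:**
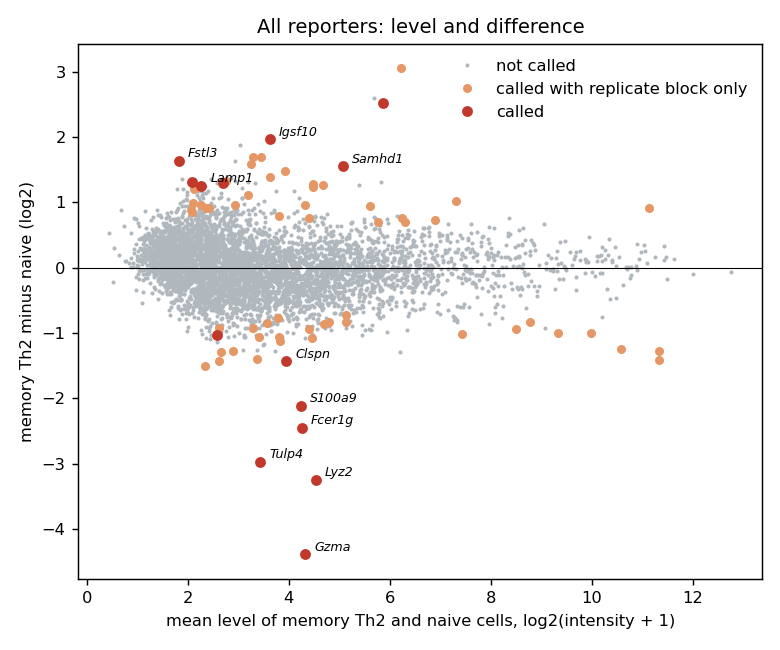
Memory Th2 minus naive difference (log2) of each of the 4992 reporters against its mean level in both groups, log2(intensity + 1). Red points are the 14 called reporters, with gene names where a single gene is known, and orange points were called only with the sample number as a block; most of the 4992 reporters lie close to 0, and Gzma at -4.39 lies lowest.

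The genes that fell furthest in memory Th2 cells were Gzma, Lyz2, Tulp4, Fcer1g and S100a9, and these 5 kept their calls whichever of the 6 samples was left out, Tulp4 by only 1 of its 2 reporters. Gzma encodes granzyme A, a serine protease of cytotoxic granules. Its level was 1.82, 2.70 and 1.87 in the memory Th2 samples, against 6.76, 6.32 and 6.48 in the naive samples. No sample of either group came near the other, and the difference of -4.39 ± 0.27 (SE, adjusted p = 3.25e-09) is the largest of any gene. Within sample numbers 1, 2 and 3 it was -4.95, -3.62 and -4.61. Over the Th2 stages Gzma averaged 6.52 ± 0.22 in naive, 10.24 ± 0.27 in effector Th2, 5.94 ± 0.28 in rested Th2 and 2.13 ± 0.50 in memory Th2 cells (SD, n = 3 each). The effector cells, after 4 days of stimulation, thus had the highest mean, and memory Th2 cells the lowest. The direct contrast of memory Th2 with rested Th2 cells was called for Gzma as well (adjusted p = 3.58e-08), in a comparison that called 195 reporters (3.91%) and, with the sample number as a block, 719 (14.4%).

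Lyz2, Fcer1g and S100a9 are best known from myeloid cells. Lyz2 encodes lysozyme of macrophages and granulocytes, Fcer1g the signalling chain of Fc receptors, and S100a9 a calcium-binding protein abundant in neutrophils. Lyz2 stood at 2.28, 2.85 and 3.63 in the memory Th2 samples, against 6.21, 6.01 and 6.29 in the naive samples. The naive samples lay close together, while the memory Th2 samples were more spread, and the difference was -3.25 ± 0.31 (adjusted p = 2.74e-06). Fcer1g had levels of 3.12, 3.53 and 2.45 in the memory Th2 samples, against 5.77, 5.28 and 5.40 in the naive samples, a difference of -2.45 ± 0.34 (adjusted p = 0.000576). S100a9 had levels of 2.90, 3.25 and 3.42 in the memory Th2 samples, against 5.23, 4.99 and 5.69 in the naive samples, a difference of -2.12 ± 0.33 (adjusted p = 0.0025). All of these genes were lower in each of the 3 sample numbers. In a fit of the 6 samples alone Fcer1g and S100a9 missed the threshold (adjusted p = 0.0569 each), and S100a9 also missed it with 0.1 added in place of 1 and on array b alone. The low side did not begin with transfer: Lyz2 averaged 2.99 ± 0.35 in effector Th2 and 3.57 ± 0.27 in rested Th2 cells. Fcer1g averaged 3.75 ± 0.20 and 3.67 ± 0.58 there, and S100a9 1.545 ± 0.28 and 2.31 ± 0.30. In memory Th2 cells the mean of S100a9 was higher than at both stages, at 3.19 ± 0.27, and that of Fcer1g lower, at 3.03 ± 0.55. Neither Lyz2 nor Fcer1g nor S100a9 was called between memory Th2 and rested Th2 cells (adjusted p = 0.261, 0.306 and 0.143).

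Most other markers of these cell types were not called. Of 14 measured myeloid markers, 9 had a lower mean in memory Th2 cells and 2 were called lower (Lyz2 and Fcer1g), against 0.186% of all genes. The summed linear intensity of the 14 ran from 332.5 to 434.6 in memory Th2 samples and from 394.1 to 508.8 in naive samples, which overlap. Their mean log2 level, with Lyz2 and Fcer1g included, did not overlap, at 3.368 to 3.788 in memory Th2 samples and 3.882 to 4.176 in naive samples. A mean without these called genes was not taken, so the separation is no statement about the other markers. The median difference of the 14 was -0.23, beside -0.03 over all genes. Of 6 granulocyte and mast cell markers, S100a9 alone was called, and the sums overlapped at 257.3 to 361.8 in memory Th2 samples and 257.9 to 348.4 in naive samples. The mean log2 level of the 6, with S100a9 included, did not overlap, at 4.023 to 4.218 in memory Th2 samples and 4.332 to 4.604 in naive samples. Here too a mean without the called gene was not taken, and the median difference of the 6 was -0.08. For cytotoxic T and NK cells, 4 markers were measured and all had a lower mean in memory Th2 cells, but the sums of 8.5 to 10.4 in memory Th2 samples and 88.0 to 115.1 in naive samples differ chiefly through Gzma, which made up 28.9% to 53.2% of the sum in memory Th2 samples and 89.8% to 93.5% in naive samples. Without Gzma the sums were 4.86 to 6.20 in memory Th2 samples and 7.48 to 9.69 in naive samples. Granzyme B and perforin, the partners of granzyme A in cytotoxic granules, were dim in both groups: Gzmb averaged 1.51 in memory Th2 cells and 2.48 in naive cells, and Prf1 1.27 in memory Th2 cells and 1.41 in naive cells (adjusted p = 0.547 and 0.926). No reporter here belongs to Cd8a, Csf1r or Adgre1 alone, so those defining markers were not analysed, nor were Cd4 and Cd3e of the labelled cell type. In such bulk samples fewer cells of a type and less RNA per cell cannot be told apart, and the part of other cell types in these differences was not tested.

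Tulp4, a tubby-like protein of incompletely known function, is carried by 2 reporters that did not agree. The brighter one, reporter 2817, stood at 1.81, 2.29 and 1.73 in the memory Th2 samples, against 4.59, 4.76 and 5.42 in the naive samples. There the groups were far apart, with a difference of -2.98 ± 0.26 (adjusted p = 8.73e-07). The dimmer one, reporter 2483, had 3.07, 1.92 and 1.67 in the memory Th2 samples, against 2.59, 2.41 and 1.82 in the naive samples, so its groups overlapped, with a difference of -0.06 ± 0.35 (adjusted p = 0.987). The fall of Tulp4 therefore rests on reporter 2817 alone, and why the reporters differ was not tested. Reporter 2817 averaged 4.92 ± 0.44 in naive, 3.96 ± 0.26 in effector Th2, 3.04 ± 0.26 in rested Th2 and 1.94 ± 0.30 in memory Th2 cells (SD, n = 3 each), so each stage had a lower mean than the one before. Clspn, the adaptor claspin of the replication checkpoint, was lower by a smaller margin, at 3.70, 2.70 and 3.32 in the memory Th2 samples, against 4.54, 4.79 and 4.70 in the naive samples. Its adjusted p was 0.0464, and the call was lost in 5 of the 6 fits without 1 sample, the exception being the fit without memory Th2 1. Clspn, Igsf10 and Fstl3 lie outside the naming rule and the lists, and are named because so few genes were called.

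**Figure D2:**
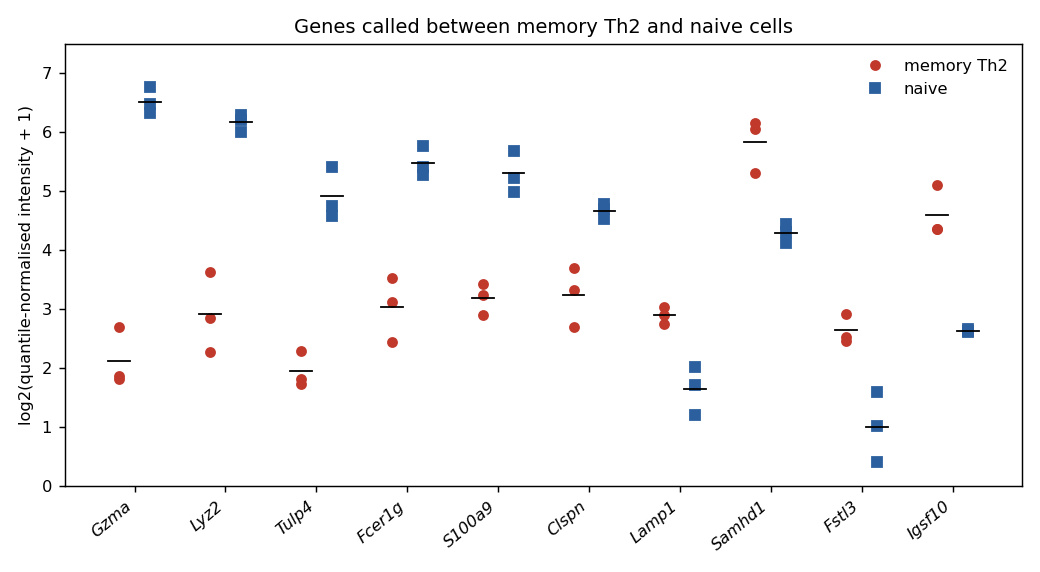
Level of the 10 called genes in each sample, log2(quantile-normalised intensity + 1), with memory Th2 samples as red circles, naive samples as blue squares and the group mean as a line (n = 3 each). In every gene the groups do not overlap; 6 genes are lower in memory Th2 cells and 4 are higher.

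The 4 genes that rose were Igsf10, Fstl3, Samhd1 and Lamp1. Their differences were smaller than those of the leading falls, and each call was lost without 1 sample in at least 4 of 6 fits. Igsf10, an immunoglobulin superfamily member, had 5.11, 4.35 and 4.36 in the memory Th2 samples, against 2.62, 2.63 and 2.66 in the naive samples. The naive samples lay close together and all memory Th2 samples far above them, at a difference of 1.97 ± 0.35 (adjusted p = 0.0121, lost without memory Th2 1 or any naive sample). The level was higher still at earlier stages, 6.34 ± 0.39 in effector Th2 and 5.49 ± 0.28 in rested Th2 cells.

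Samhd1 encodes a dNTP triphosphohydrolase that lowers the nucleotide pool of resting cells and restricts retroviruses. It stood at 6.06, 5.30 and 6.17 in the memory Th2 samples, against 4.12, 4.31 and 4.45 in the naive samples, a difference of 1.55 ± 0.31 (adjusted p = 0.0356), and kept its call only without memory Th2 2. Rested Th2 cells were at 5.72 ± 0.32, close to memory Th2 cells at 5.84 ± 0.47 (SD, n = 3 each, adjusted p = 0.86 between them).

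Lamp1, a glycoprotein of the lysosomal membrane that reaches the surface of degranulating lymphocytes, was dim throughout, at 2.76, 2.91 and 3.03 in the memory Th2 samples, against 2.02, 1.20 and 1.71 in the naive samples. The difference was 1.26 ± 0.24 (adjusted p = 0.0273, lost without memory Th2 1 or 3 or naive 2 or 3). Rested Th2 cells were at 1.41 ± 0.08, and the contrast with memory Th2 cells was called as well (adjusted p = 0.000912). Fstl3, a secreted binder of activin, was dim too, at 2.92, 2.53 and 2.47 in the memory Th2 samples, against 1.01, 0.41 and 1.59 in the naive samples, a difference of 1.63 ± 0.31 (adjusted p = 0.0273, lost without memory Th2 1 or 3 or naive 1 or 2). Both genes lie below the median reporter in each group, where the added 1 shrinks differences.

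**Figure D3:**
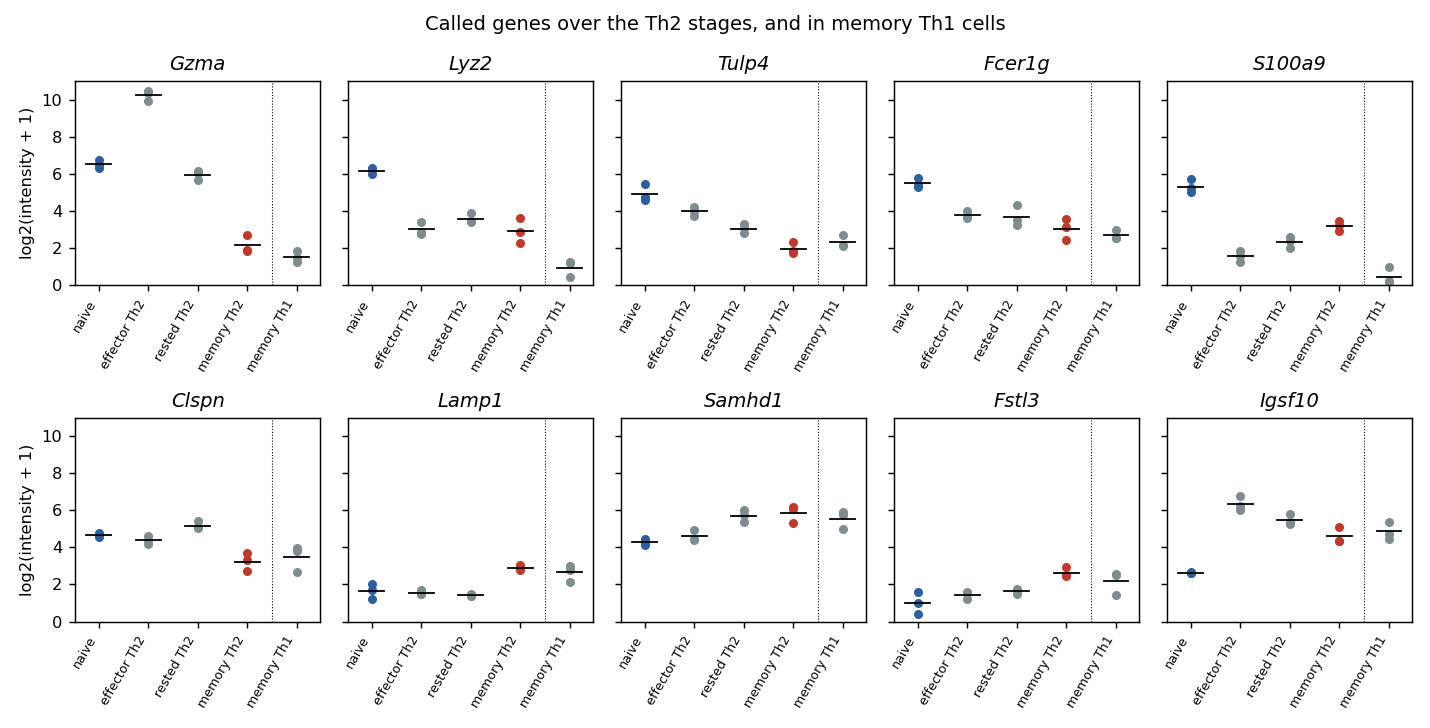
Level of the 10 called genes, log2(intensity + 1), in naive, effector Th2, rested Th2 and memory Th2 samples in that order and, right of the dotted line, in memory Th1 samples (points are samples, lines are means, n = 3 each). Gzma peaks at 10.24 in effector Th2 cells before its low in memory cells; the mean of Tulp4 (reporter 2817) is lower at each stage; Lyz2, Fcer1g and S100a9 are already low in effector Th2 cells.

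Interferon-induced genes were among those that passed with the sample number as a block. Interferons act through STAT factors on promoters that carry an interferon-stimulated response element or a gamma-activated site. Of 9 measured members, 1 was called higher and none lower without the block, and 3 were higher and 1 lower with it, against 0.805% and 0.712% of all genes. The median difference of the 9 was 0.30, and 6 of them were positive, beside a median of -0.03 over all 3230 genes, of which 1529 were positive. The promoters of Igtp, Samhd1 and Ifitm3 are shown because these members moved in the fit with the block and because each holds a match to one of the elements, so that their matches are a description and no evidence. They run from 250 bases before to 50 after the RefSeq start on GRCm38.p6, 5′ to 3′ on the gene's strand, and capitals mark matches to GAAANNGAAA (a core of the interferon-stimulated response element) or TTCNNNGAA (gamma-activated site), searched on both strands.
Igtp (chr11:58199306-58199605, plus strand): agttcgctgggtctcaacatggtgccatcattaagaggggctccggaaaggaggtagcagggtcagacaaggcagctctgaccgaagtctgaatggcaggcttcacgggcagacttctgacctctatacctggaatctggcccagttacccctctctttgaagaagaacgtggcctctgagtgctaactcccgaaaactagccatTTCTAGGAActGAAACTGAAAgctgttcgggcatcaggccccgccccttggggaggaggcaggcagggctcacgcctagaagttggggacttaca
Samhd1 (chr2:157135047-157135346, minus strand): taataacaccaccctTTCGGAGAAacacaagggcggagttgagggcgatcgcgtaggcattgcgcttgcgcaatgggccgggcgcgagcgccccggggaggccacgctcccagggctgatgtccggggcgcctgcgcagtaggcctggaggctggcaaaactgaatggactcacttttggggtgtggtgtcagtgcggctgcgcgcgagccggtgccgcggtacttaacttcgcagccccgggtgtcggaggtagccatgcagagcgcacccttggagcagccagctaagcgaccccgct
Ifitm3 (chr7:141010695-141010994, minus strand): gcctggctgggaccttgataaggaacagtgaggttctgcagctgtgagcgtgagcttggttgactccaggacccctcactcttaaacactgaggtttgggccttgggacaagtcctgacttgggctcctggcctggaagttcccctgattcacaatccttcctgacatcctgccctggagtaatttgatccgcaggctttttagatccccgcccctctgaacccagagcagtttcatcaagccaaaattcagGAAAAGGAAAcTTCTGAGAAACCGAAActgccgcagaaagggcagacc
Igtp held 1 match of each kind and Samhd1 1 match to TTCNNNGAA. Ifitm3 held 2 matches to GAAANNGAAA and 1 to TTCNNNGAA, which overlaps the second GAAANNGAAA. Of the 9 members, 6 were matched to the RefSeq promoters. Among the other 3 matched, Ifitm2 held 1 match to GAAANNGAAA, Irf1 1 match to TTCNNNGAA at 1 of its 2 starts, and Irf9 none at either start. Gbp8, Ly6e and Tap2 were not matched. To show how common the letters are, of 32851 promoters of this length, 3.44% held GAAANNGAAA and 8.3% held TTCNNNGAA.

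Igtp, an immunity-related GTPase induced by interferon-gamma, had 4.76, 3.51 and 4.14 in the memory Th2 samples, against 2.78, 2.18 and 2.39 in the naive samples. All memory Th2 samples were above all naive samples, by 1.69 ± 0.42, with an adjusted p of 0.118 without the block and 0.0299 with it. Ly6e, a GPI-anchored surface protein, had 7.01, 7.20 and 7.58 in the memory Th2 samples, against 6.21, 6.49 and 6.93 in the naive samples. The samples kept the same order by number in both groups, the pair differences were 0.80, 0.72 and 0.65, and the adjusted p was 0.403 without the block and 0.0314 with it. Ifitm3, which hinders virus entry, was lower in memory Th2 cells, with 1.52, 2.05 and 2.44 in the memory Th2 samples, against 2.99, 3.33 and 3.57 in the naive samples, an adjusted p of 0.0956 without the block and 0.0051 with it. Gbp8, a guanylate-binding protein, had 6.73, 4.98 and 6.40 in the memory Th2 samples, against 5.15, 4.46 and 4.67 in the naive samples and passed neither fit (adjusted p = 0.388 and 0.174 with the block). Irf1, Irf9, Tap2 and Ifitm2 differed by 0.30, -0.23, 0.21 and -0.48, and none of them passed either fit.

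Genes tied to helper lineage showed no call. All of the 10 measured Th2-associated genes failed both fits, with a median difference of 0.04. Il13, a defining Th2 cytokine, was dim, at 1.72, 2.33 and 1.83 in the memory Th2 samples, against 1.37, 1.14 and 1.50 in the naive samples (adjusted p = 0.718). Its 3 memory Th2 samples lay above the naive ones without a call, and all 6 samples were below the median reporter. Tspan13, a tetraspanin, and Rnf128, an E3 ligase tied to T cell anergy, differed by -0.37 and 0.33 without overlap between groups (adjusted p = 0.861 and 0.866). Such separation was found in 13.4% of all reporters. Of 9 Th1-associated genes none passed either, and the largest difference was that of Tnf, at 1.57, 2.57 and 3.38 in the memory Th2 samples, against 1.51, 0.67 and 1.74 in the naive samples (adjusted p = 0.345). No reporter here belongs to Il4, Il5 or Gata3 alone, so they were not analysed.

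Of 16 genes of naive and quiescent cells none passed either fit, the median was -0.15 and 4 were positive. Without overlap between groups, and without a call, the actin cross-linker Actn1 stood at 4.68, 4.15 and 5.16 in the memory Th2 samples, against 5.55, 5.56 and 5.67 in the naive samples (adjusted p = 0.323), and the chromatin organiser Satb1 at 6.53, 5.77 and 6.52 in the memory Th2 samples, against 7.17, 6.64 and 6.92 in the naive samples (adjusted p = 0.541). Bach2, a repressor that keeps T cells undifferentiated, averaged 3.98 in memory Th2 cells and 4.31 in naive cells, also without overlap or a call. Among all reporters, 13.4% had no overlap between groups. Igfbp4 had the opposite sign, with 4.41, 4.17 and 5.50 in the memory Th2 samples, against 2.72, 3.72 and 4.12 in the naive samples (adjusted p = 0.588). Ccr7, the receptor that guides naive cells into lymph nodes, varied more among samples than between groups, at 0.61, 3.68 and 2.11 in the memory Th2 samples, against 1.37, 3.09 and 3.32 in the naive samples.

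Among 13 memory-associated genes, Gzma was called lower and Ly6e was higher with the block. Of all genes, 0.186% were called lower, and 0.805% were higher with the block. Crip1, a small LIM-domain protein, had 5.84, 7.38 and 6.24 in the memory Th2 samples, against 4.75, 5.39 and 5.38 in the naive samples, a difference of 1.31 ± 0.39 that did not pass (adjusted p = 0.263 and 0.078 with the block). Anxa2, a membrane-binding annexin, stood at 2.49, 4.15 and 3.40 in the memory Th2 samples, against 4.18, 4.29 and 4.75 in the naive samples (adjusted p = 0.388). For the integrin chains Itgb7 and Itgb2 and the lectin Lgals1 all memory Th2 samples lay above all naive samples without a call, at differences of 0.67, 0.76 and 0.36. Groups did not overlap in 13.4% of all reporters.

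Lists of housekeeping pathways gave hardly a call, where the fit with the block called 0.805% of all genes higher and 0.712% lower. Of 39 oxidative phosphorylation genes, 30 were positive at a median of 0.18 and none passed either fit. Of 36 cytosolic ribosomal protein genes, 28 were positive at a median of 0.16, and Rps12 was higher with the block, at 11.70, 11.21 and 11.88 in the memory Th2 samples, against 10.83, 10.51 and 10.71 in the naive samples (adjusted p = 0.122 and 0.0193 with the block). Of 12 glycolysis genes, 8 were positive at a median of 0.22 with no call in either fit, and Ldhb had the largest difference, 1.35 ± 0.45 (adjusted p = 0.337). By contrast, 5 of 28 lysosome and cathepsin genes were positive at a median of -0.17, where Lamp1 rose and no member fell in either fit. The protease genes Ctsc, Ctsl and Lgmn of that list differed by -0.85, -0.84 and -0.71 without overlap between groups, each without a call. Of all reporters, 13.4% were without overlap. For comparison, the SD of all reporters' differences was 0.435, and members of a list are not independent replicates.

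Regulators of transcription and signalling added single genes with the block. Of 71 chromatin regulators, 2 were higher and none lower in that fit, against 0.805% and 0.712% of all genes. The 2 were Hdac1, a histone deacetylase, at 4.16, 4.75 and 4.08 in the memory Th2 samples, against 2.97, 2.79 and 3.08 in the naive samples (adjusted p = 0.0338), and Chaf1a, a subunit of the histone chaperone CAF-1. Chaf1a stood at 3.01, 2.05 and 3.15 in the memory Th2 samples, against 1.71, 1.23 and 2.41 in the naive samples, which overlap (adjusted p = 0.0407 with the block and 0.363 without). Of 20 genes of cytokine receptors and the STAT pathway, 6 were positive, and Smad4, the common mediator of TGF-beta signals, was lower at 7.01, 6.37 and 7.37 in the memory Th2 samples, against 7.83, 7.97 and 7.99 in the naive samples (adjusted p = 0.0337). The kinase Jak1 and the transcription factor Stat3 differed by -0.86 and -0.83 without overlap and did not pass (adjusted p = 0.078 and 0.13 with the block). Absence of overlap held for 13.4% of all reporters. Klf4, a factor that restrains T cell proliferation, was higher at 5.59, 4.30 and 5.46 in the memory Th2 samples, against 3.72, 3.93 and 3.87 in the naive samples (adjusted p = 0.0494), and so was Bcl2a1d of the anti-apoptotic A1 family at 4.76, 3.16 and 4.21 in the memory Th2 samples, against 2.37, 2.38 and 2.60 in the naive samples (adjusted p = 0.0193). The A1 genes are near-identical copies, and a cDNA reporter may not tell them apart. Among 55 cell cycle genes and 11 of T cell receptor signalling none passed either fit.

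**Figure D4:**
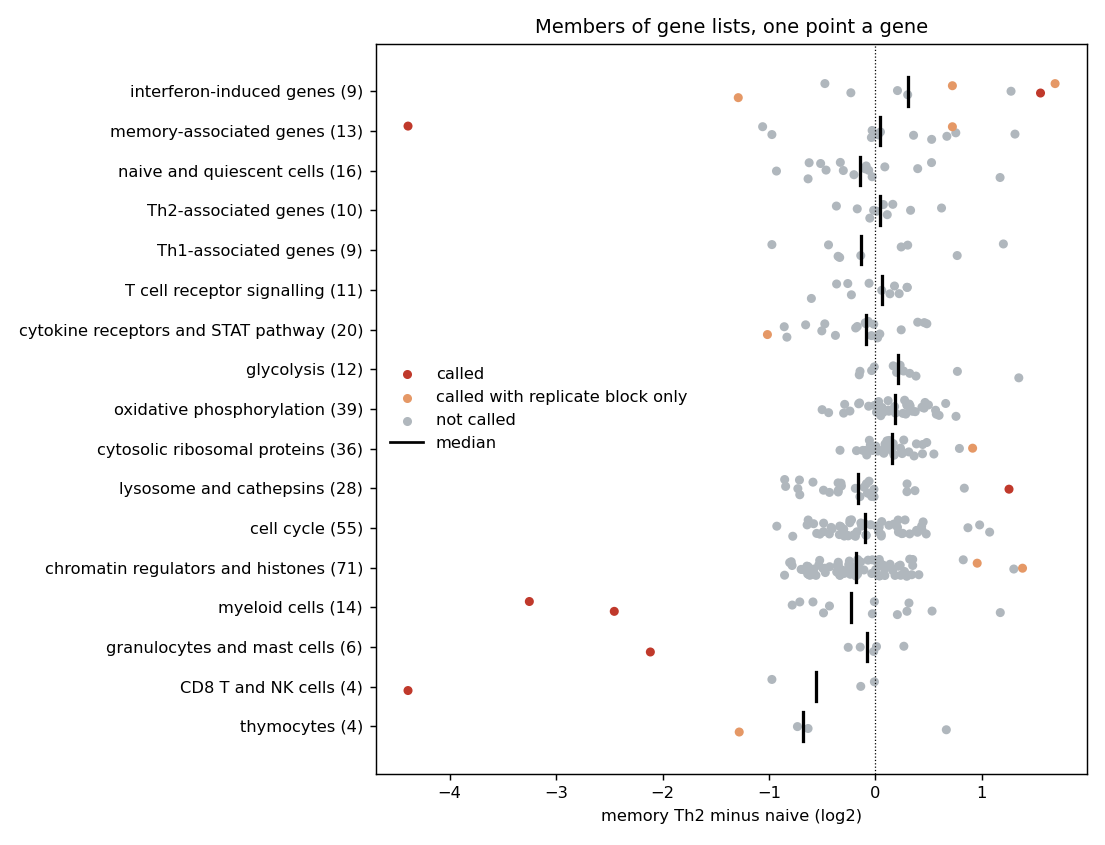
Memory Th2 minus naive difference (log2) of each measured member of 17 gene lists, the number of members in brackets. Each point is a gene, red if called, orange if called only with the sample number as a block, grey otherwise, and the black line is the list's median; medians of the 9 interferon-induced genes (0.30) and of the 28 lysosomal genes (-0.17) lie on either side of 0, and most members of every list are grey.

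All 49 genes called with the block had the same sign in sample numbers 1, 2 and 3. That fit favours genes whose numbers agree, so the shared sign follows largely from the choice of genes and is no separate support. Most of the 49 genes failed without the block: 39 passed only in the fit with it. Sample number 2, whose samples share no spot pattern, gave the smallest difference in 24 of the 49 genes, number 1 in 8 and number 3 in 17. Of the 49 genes, 6 have another single-gene reporter, and none of those reporters passed either fit. Beside Tulp4, the other reporter of Pabpc1 differed by -0.81 without overlap, that of Ly6e by 0.28 and that of Sugp2 by 0.48, the last with the opposite sign. The other reporter of Adam9 also had the opposite sign, at -0.04 against 1.48. That of Sugt1 differed by 0.085 against 0.70. Examples of uneven pairs are Klf4 with 1.88, 0.36 and 1.59 in numbers 1, 2 and 3 and Bcl2a1d with 2.39, 0.79 and 1.60. With the spot pattern as a fixed block, 991 reporters were called, the 14 and the 70 among them, and Gzma stood at -4.72 ± 0.16. That fit takes the difference chiefly from samples that share a pattern, and whether their spread is that of independent samples was not tested.

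**Figure D5:**
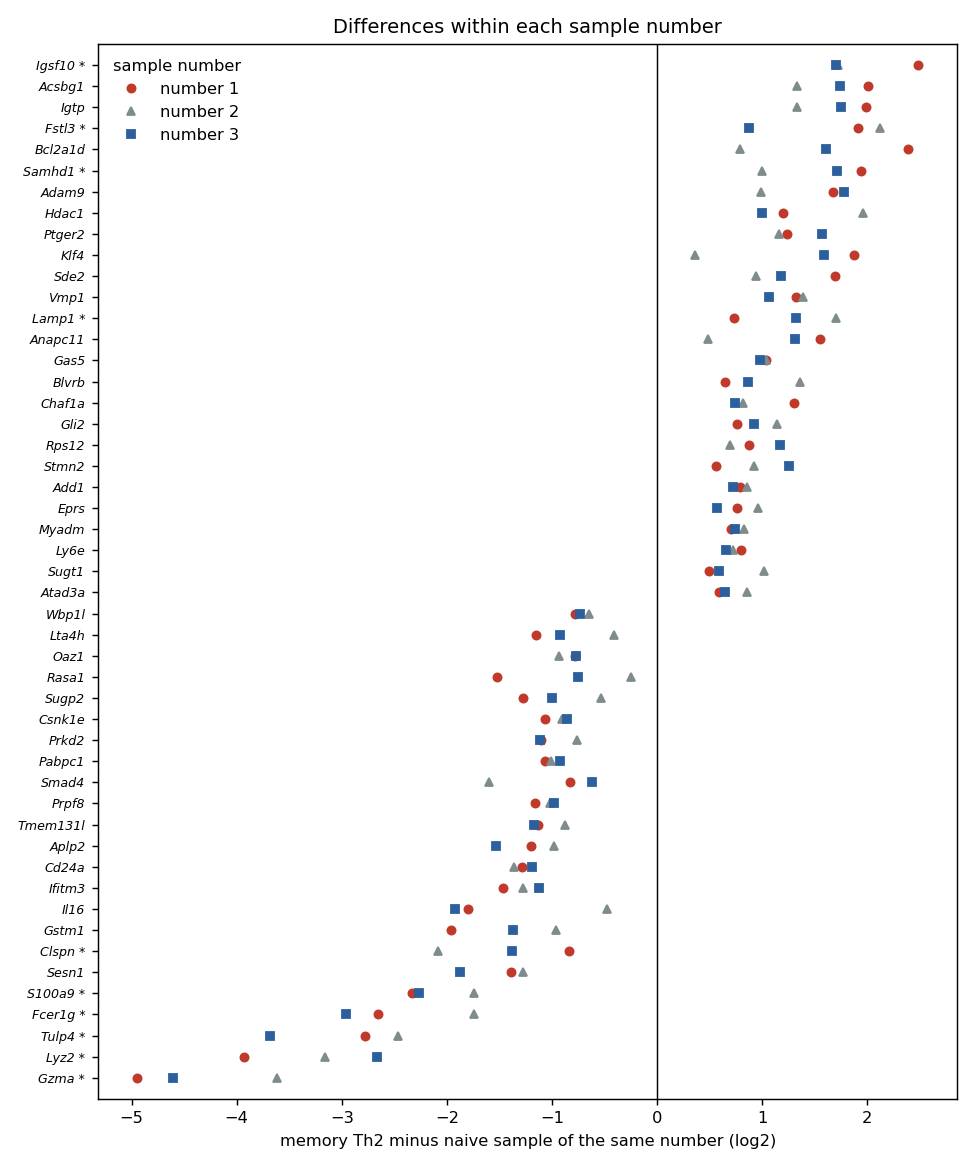
Difference between the memory Th2 and the naive sample of the same number (log2) for the 49 genes called with the sample number as a block, ordered by mean difference, with an asterisk at the 10 called without it. Red circles, grey triangles and blue squares are numbers 1, 2 and 3. No gene has points on both sides of 0, which the choice of genes by that fit favours.

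Reporters with neighbouring numbers moved together. Across reporters, the difference of one and of the next-numbered one correlated at r = 0.231 (4991 pairs), at r = 0.185 for 24 numbers apart and at 0.017 for 192 apart, and the levels themselves at 0.311, 0.208 and 0.070. Some genes called with the block are such neighbours, named here after their values were seen. Gstm1 and Tulp4 are reporters 2816 and 2817, both lower. Rps12 and Gli2 are reporters 2171 and 2172, higher by 0.91 and 0.94. Fcer1g and Cd24a, a surface glycoprotein of immature T cells, are reporters 2092 and 2094, both lower, but Ttc21a at 2093 between them differed by 0.135. Sugp2, Prkd2 and Aplp2 are reporters 3258, 3260 and 3262, at differences of -0.94, -0.99 and -1.24, beside -1.28 at the unnamed reporter 3264. Of the reporters in between, Itm2b at 3259 differed by -0.021, Clk3 at 3261 by -0.696 and Mypop at 3263 by -0.765. The part of position on the array in these differences was not tested.

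Whether Th2 memory differs from Th1 memory was asked by a direct contrast. Its difference uses no naive sample, but its spread comes from the fit over all 7 groups. Between memory Th2 and memory Th1 cells, 10 reporters were called (0.2%), or 20 with the sample number as a block (0.401%). Of the 10, 8 were higher and 2 were lower in memory Th2 cells. In this contrast each memory Th2 sample shares its spot pattern with the memory Th1 sample of the same number. Among the 10 genes called against naive cells, Lyz2 and S100a9 differed between the memory lineages as well. Lyz2 averaged 2.92 ± 0.68 in memory Th2 and 0.93 ± 0.44 in memory Th1 cells (SD, n = 3 each, adjusted p = 0.00487). S100a9 averaged 3.19 ± 0.27 in memory Th2 and 0.44 ± 0.47 in memory Th1 cells (SD, n = 3 each, adjusted p = 0.000164). For Gzma, Tulp4, Fcer1g, Clspn, Igsf10, Fstl3, Samhd1 and Lamp1 the contrast was not called, at differences of 0.63, -0.35, 0.36, -0.23, -0.26, 0.45, 0.28 and 0.25.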

How the data were processed

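As deposited, each array gives 9600 linear intensities of spots hybridised with 33P-labelled cDNA, made from 5 to 15 µg of total RNA per the labels' protocols. How the authors read the images, subtracted background or normalised is not given in the sources used here, the arrays carry no background or detection column, and precision is limited by the 3 samples a group. Between 26 and 378 spots of an array used here were at 0. All 42 arrays were quantile-normalised, 1 was added, log2 was taken, and the spots of a reporter and then arrays a and b were averaged. The submitters' series matrix, the same intensities times 1 factor an array, was an alternative.

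Reporters were named through the platform table, which gives a single gene for 3626 reporters, several for 172 and none for 1194; symbols were updated by Entrez identifier against RefSeq GRCm38.p6, which held 3605 of them. The brightest single-gene reporter stood for a gene. Reporters and promoter sequences come from separate tables, and no build is given for the arrays.

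One model per reporter over 7 groups was fitted by lmFit and eBayes of limma 3.58.1 (R 4.3.3), and p-values were adjusted by Benjamini-Hochberg over 4992 reporters and called at 0.05. Its SE uses 1 spread for all groups, whose median SD ran from 0.268 to 0.460, with 0.443 in memory Th2 cells. It takes the samples as independent, although samples sharing a spot pattern correlated within groups at 0.784 (consensus). The script was checked on simulated data with independent samples, a check that does not cover shared spot patterns or deviations shared by sample number. Genes were named if called, without overlap between groups and still called in each of 6 fits without 1 sample, up to 15 a direction, and members of the gene lists could be named too. The members, lists and tests were chosen with earlier results of these data known. Deviations of same-numbered memory Th2 and naive samples from their group means correlated at 0.713, 0.375 and 0.734 for numbers 1, 2 and 3, which is a pairing read from the data and not from the labels, and fits with the number as a block are given where they change a call. Tables were handled in Python 3.11.15 with pandas 2.3.3, and plots drawn with matplotlib 3.10.9.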

Additional observations from a re-analysis of the deposited data

Results flagged for a closer look

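For 8 genes the difference from naive cells was not the same in Th2 as in Th1 memory, by the direct limma contrast of memory Th2 with memory Th1 cells (adjusted p below 0.05, n = 3 each). The difference itself does not use the naive samples, but its spread was estimated over all 7 groups, the naive samples included. Prkci, an atypical protein kinase C, averaged 4.21 ± 0.66 in memory Th2 and 0.79 ± 0.33 in memory Th1 cells, a difference of 3.41 on the log2 scale, and S100a9 differed by 2.75. These calls were kept in all 6 fits without 1 sample. Lyz2 differed by 1.98 and Dnajc15, a mitochondrial co-chaperone, by -1.62, and both calls were kept in 5 of 6 such fits. Dnajc15 averaged 4.16 ± 0.39 in memory Th2 and 5.78 ± 0.66 in memory Th1 cells. The other calls were kept in 1 or 2 of 6 fits. Xpo4, a nuclear transport receptor, averaged 6.98 ± 1.13 in memory Th2 and 2.83 ± 0.45 in memory Th1 cells and differed by 4.16. Cdt1, a replication licensing factor, differed by 1.52, Ltf (lactoferrin) by 1.37 and the kinase Hipk1 by -1.16. Some of these reporters are close neighbours: Hipk1 and Dnajc15, the 2 that were lower, are reporters 3210 and 3212. S100a9 is reporter 2260, beside the unnamed reporter 2259, which was called in the same direction at 1.69. The part of position on the array and of shared spot patterns in these calls was not tested. With the sample number as a block the adjusted p of the 8 genes lay between 1.91e-07 and 0.0204, and in a fit of the 6 memory samples alone between 0.127 and 0.999, so that none passed there.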

How the results depend on the processing

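Each alternative changed 1 choice of the 7-group limma fit, except the replicate block on the 6 samples only and the trended and robust prior, which changed 2 each. Against 7 reporters higher and 7 lower in memory Th2 than in naive cells, 3 were higher with median centring, 4 with 0.1 added and 3 among bright reporters only. The series matrix gave 13 higher and 12 lower, 10 added gave 13 and 12, and normexp with offset 50 gave 19 and 17. The first 2 of these are not separate alternatives. The median of an array was 0.936 to 1.15 in the series matrix, against 5.736 to 12.99 as used here. The added 1 is therefore larger beside the series matrix intensities, much as 10 is beside those used here. The fit of the 6 samples only gave 1 and 3, array a alone 3 higher and array b alone 1 higher. With the replicate block over 7 groups 37 were higher and 33 lower, and with the block on the 6 samples only 1 and 1. With the shared spot pattern as a random block 572 were higher and 615 lower, and as a fixed block, added after seeing the data, 484 and 507. Fits without 1 sample gave 1 to 21 higher and 5 to 12 lower, the most without memory Th2 2.

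Against 10 reporters between memory Th2 and memory Th1 cells, 20 were called with the replicate block, 0 in either fit of the 6 samples only, 396 with the random and 183 with the fixed pattern block, 5 on array a alone, 5 with a trended and robust prior, and 4 to 17 without 1 sample. Against 195 between memory Th2 and rested Th2 cells, 103 were called with median centring, 46 on the 6 samples only, 719 with the replicate block and 52 with it on the 6 samples only, 127 on array b alone and 94 to 305 without 1 sample. No fixed pattern block could be fitted there, because the groups share no pattern. The cause of these changes was not tested. None of the 49 genes called with or without the replicate block changed sign under any alternative run. Of the 10 genes called against naive cells, Gzma alone passed every alternative, and with the replicate block on the 6 samples only it was the single one.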

Other observations

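Translation and RNA processing contributed single genes in the fit with the sample number as a block, which called 0.805% of all genes higher and 0.712% lower. Of 27 translation factors, Pabpc1, the cytoplasmic poly(A)-binding protein, was lower at 8.65, 8.87 and 8.98 in the memory Th2 samples, against 9.72, 9.88 and 9.90 in the naive samples (adjusted p = 0.0186 with the block and 0.105 without), and of 74 splicing and RNA-binding proteins, Prpf8, a core component of the spliceosome, was lower at 2.34, 3.54 and 3.98 in the memory Th2 samples, against 3.50, 4.57 and 4.97 in the naive samples (adjusted p = 0.0156 with the block and 0.592 without). Of 4 thymocyte markers, Cd24a was lower at 2.67, 2.07 and 2.05 in the memory Th2 samples, against 3.96, 3.43 and 3.24 in the naive samples (adjusted p = 0.0312 with the block). The summed linear intensity of the 4 overlapped at 255.2 to 306.0 in memory Th2 samples and 221.5 to 296.1 in naive samples. Their mean log2 level, with Cd24a included, did not overlap, at 4.708 to 5.062 in memory Th2 samples and 5.228 to 5.505 in naive samples. A mean without Cd24a was not taken, and the median difference of the 4 was -0.68. Of 9 erythroid and platelet markers, Blvrb, a biliverdin reductase, was higher at 3.17, 3.63 and 3.46 in the memory Th2 samples, against 2.52, 2.27 and 2.60 in the naive samples (adjusted p = 0.0278 with the block). Neither fit called a member among 84 ubiquitin enzymes, 54 cytoskeletal genes, 50 solute carriers, 39 MAP kinases and protein phosphatases, 38 chaperones, 30 proteasome genes, 22 genes of chemokines, integrins and homing, 19 of the mitochondrial ribosome, 12 fibroblast and stromal markers or 7 costimulatory and inhibitory receptors.

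Reporter 2279, unnamed here, had the largest called rise, with 7.26, 6.97 and 7.15 in the memory Th2 samples, against 4.71, 4.30 and 4.82 in the naive samples, a difference of 2.52 ± 0.24 (adjusted p = 2.74e-06) that was kept in all 6 fits without 1 sample. Larger differences went uncalled where samples were spread: the unnamed reporter 4545 stood at 8.84, 6.67 and 7.73 in the memory Th2 samples, against 5.13, 4.83 and 4.11 in the naive samples (adjusted p = 0.14, and 0.0156 with the sample number as a block), and Xpo4, a nuclear transport receptor, at 7.83, 5.69 and 7.42 in the memory Th2 samples, against 4.70, 4.30 and 4.13 in the naive samples (adjusted p = 0.312 and 0.088 with the block). In both, memory Th2 2 was the lowest memory sample. Ifitm2, an interferon-induced membrane protein, followed the sample number more than the group, at 5.45, 5.38 and 3.03 in the memory Th2 samples, against 5.42, 6.25 and 3.62 in the naive samples.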
